A study of Mus musculus with 6 samples.

Results

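The imprinted growth genes were followed in iKAP mouse colorectal cancer cells: Phlda2, Cdkn1c, H19, Igf2r, Grb10 and Meg3, which are known to be expressed mainly from the maternal copy, and Igf2, Peg3, Plagl1 and Dlk1, which are known to be expressed mainly from the paternal copy. They were read through all probe sets whose platform annotation lists 1 of these 10 symbols, 32 of 45037 probe sets once array controls are left out. The 3 arrays labelled IRF2 hold RNA of cells with the IRF2 open reading frame in the lentiviral plasmid pLenti6.3. The 3 GFP control arrays hold RNA of the same cells with GFP in that plasmid, and both constructs were stably expressed. iKAP names a genetically engineered mouse model of colorectal cancer, and cells of both groups carry its alleles. All 6 arrays come from 1 primary culture, and its medium held a tetracycline-free additive. Labels give no animal age, no separate cultures for the replicates and no statement on doxycycline, so p-values measure only the spread between arrays, which may be technical.

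Imprinted genes carry a methylation mark set in the egg or sperm, and afterwards only the maternal or only the paternal copy is transcribed. Many of them set growth before birth: as a rule the paternally expressed ones promote it and the maternally expressed ones restrain it. Most lie in clusters, and on distal mouse chromosome 7 the cluster of Igf2 and H19 lies beside the cluster of Cdkn1c and Phlda2, in which the paternally expressed RNA Kcnq1ot1 silences its neighbours on the paternal copy. Array intensities add up both copies of a gene, so they give no measure of which copy was expressed.

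The genes were selected on earlier results of this same comparison: the list was put together around Phlda2, whose log2 fold change was already known to be among its lowest. Changes of the 10 genes between the groups are therefore given as values with a standard error (SE) and with no p-value, and no count of them is support for a pattern. A call means an adjusted p under 0.05 in a limma fit of log2 intensities over all probe sets, or over 1 probe set a gene, above an intensity filter of 11.3. Fold changes are log2 values of the IRF2 arrays over the GFP control arrays, and levels are linear intensities, which are not comparable between probe sets. Where no error is named, an error is the SD over 3 arrays.

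Checks of the arrays come first. Irf2 itself, through its 1 probe set, read 37.0, 36.6 and 35.2 on the arrays labelled IRF2, against 65.4, 60.5 and 62.0 on the GFP control arrays (log2 fold change -0.79, SE 0.06, limma adjusted p = 1.73e-07). The signal was thus lower in the group named for the transferred IRF2, so that group is called "labelled IRF2" throughout. No source used here says whether the probe set can read the transferred open reading frame, so its value neither bears out nor contradicts the label. Over the 6 arrays, medians lay between 18.2 and 18.7, and the tryptophan control probe sets, which no mouse RNA should fill, read 3.69 to 6.52. Beta-actin gave a ratio of 3' to 5' signal of 0.996 to 1.02, and the transferrin receptor gave 3.81 to 4.47 on the arrays labelled IRF2 and 3.61 to 3.78 on the GFP control arrays. The 5' probe set of 18S rRNA read 2099 to 2254 on the arrays labelled IRF2 and 1798 to 2034 on the GFP control arrays. The 8 epithelial markers, of which Vil1 alone lay under the filter, summed to 15836 to 15972 on the arrays labelled IRF2 and 14251 to 14400 on the GFP control arrays, a sum in which the keratins weigh most. Single markers went both ways: Cdh1 averaged 127 ± 2.80 on the arrays labelled IRF2 and 214 ± 2.26 on the GFP control arrays and fell by 0.75 on the log2 scale (SE 0.04, limma adjusted p = 1.46e-09). The brightest probe set of Epcam averaged 27.8 ± 5.31 on the arrays labelled IRF2 and 48.2 ± 1.27 on the GFP control arrays. It fell by 0.81 (SE 0.11, adjusted p = 3.10e-05). A second Epcam probe set above the filter came to -0.04 (SE 0.09), with overlapping groups. Krt8 rose by 0.50 (SE 0.02, adjusted p = 7.44e-11) and Krt18 by 0.08 (SE 0.02, adjusted p = 0.00250), and Krt19, Cdx2 and Cldn7 did not pass. The 9 fibroblast and stromal markers summed to 254 to 271 on the arrays labelled IRF2 and 232 to 235 on the GFP control arrays, with Col1a1, Lum and Thy1 under the filter. Among them Pdgfra rose by 0.70 (SE 0.10, adjusted p = 7.90e-05) and Acta2 by 0.37 (SE 0.06, adjusted p = 1.21e-04). Pdgfrb fell by 0.40 (SE 0.08, adjusted p = 0.00117) in its brightest probe set. A second Pdgfrb probe set above the filter came to 0.09 (SE 0.08), with overlapping groups. Col3a1, Dcn and Col1a2 did not pass. The 6 endothelial markers summed to 50.2 to 56.6 on the arrays labelled IRF2 and 49.0 to 50.9 on the GFP control arrays, with Pecam1, Tek, Emcn and Vwf under the filter. The 7 immune cell markers summed to 286 to 298 on the arrays labelled IRF2 and 258 to 293 on the GFP control arrays, with Ptprc and Itgam under the filter. Among them Cd14 rose by 0.18 (SE 0.06, adjusted p = 0.0350), with overlapping groups. The 6 placenta and muscle markers summed to 128 to 139 on the arrays labelled IRF2 and 122 to 131 on the GFP control arrays, with Myod1, Myog and Tpbpa under it. Their part, and that of the RNA controls, in the values below was not tested.

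Among the restrainers of growth, Phlda2 and Cdkn1c were lower on the arrays labelled IRF2 and Igf2r was higher, and Plagl1 was lower among the paternally expressed genes. Igf2, Peg3 and Meg3 differed by little, and Dlk1, Grb10 and the probe set listed for H19 stayed near the dim end of the array in both groups. The promoter stretches of Phlda2, Plagl1 and Igf2r are shown because these are the genes called below that have a promoter entry; they are the 250 bases before the start of the gene, from RefSeq on GRCm38.p6, written 5′ to 3′ on the strand of the gene, with CpG dinucleotides, the sites that imprints methylate, in capitals. Phlda2 lies at chr7:143502525-143502774 on the minus strand, Plagl1 at chr10:13090582-13090831 on the plus strand and Igf2r at chr17:12769707-12769956 on the minus strand.
Phlda2: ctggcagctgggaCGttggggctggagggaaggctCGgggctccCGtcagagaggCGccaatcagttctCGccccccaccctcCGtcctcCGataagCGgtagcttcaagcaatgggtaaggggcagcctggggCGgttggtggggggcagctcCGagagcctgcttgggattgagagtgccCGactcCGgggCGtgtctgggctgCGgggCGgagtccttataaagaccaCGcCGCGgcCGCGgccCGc
Plagl1: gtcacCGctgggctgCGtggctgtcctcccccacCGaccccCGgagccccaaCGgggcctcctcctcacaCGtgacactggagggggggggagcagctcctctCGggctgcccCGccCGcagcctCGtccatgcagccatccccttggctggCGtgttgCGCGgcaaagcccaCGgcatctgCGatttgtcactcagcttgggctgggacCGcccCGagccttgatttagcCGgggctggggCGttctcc
Igf2r: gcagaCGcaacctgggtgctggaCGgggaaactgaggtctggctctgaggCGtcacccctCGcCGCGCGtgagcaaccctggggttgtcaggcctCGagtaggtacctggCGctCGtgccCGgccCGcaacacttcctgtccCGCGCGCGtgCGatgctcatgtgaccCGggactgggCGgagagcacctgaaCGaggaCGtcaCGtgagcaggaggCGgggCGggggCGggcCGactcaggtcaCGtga
These stretches hold 21 CpGs for Phlda2, 19 for Plagl1 and 27 for Igf2r, against a median of 6 over all 32851 stretches of that length in the table. Entries existed for 8 of the 10 genes, with 13 starts between them, and those stretches held from 0 CpGs, at a start of Meg3, to 40, at a start of Grb10. The core letters to which interferon regulatory factors are known to bind, AANNGAAA, were searched on both strands. They matched 2 of the 13 stretches, 1 of Grb10 and 1 of Meg3, and 21.3% of all stretches.

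Phlda2 encodes a small protein with a pleckstrin homology domain that is known to limit placental growth. It read 162, 167 and 175 on the arrays labelled IRF2, against 393, 382 and 403 on the GFP control arrays. The groups lay far apart: the highest array labelled IRF2 was under the lowest GFP control array by more than the whole range of either group. Means were 168 ± 6.56 on the arrays labelled IRF2 and 393 ± 10.5 on the GFP control arrays, 2.34-fold lower on the arrays labelled IRF2 (log2 fold change -1.23, SE 0.04). Only 12 of the 12795 genes fitted had a lower log2 fold change, and 37 genes were at least 2-fold lower with a call. Its within-group SD on the log2 scale was 0.048, close to the median of 0.046 for probe sets of its decile of intensity. Over the 15 alternatives of processing, the log2 fold change ran from -1.26 to -1.15. It has 1 probe set, so no other probe set of the gene could be compared.

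Cdkn1c encodes a cyclin-dependent kinase inhibitor that stops dividing cells in G1. It read 138, 147 and 129 on the arrays labelled IRF2, against 179, 165 and 173 on the GFP control arrays. These groups did not overlap either, but they lay closer together than those of Phlda2. Means were 138 ± 8.74 on the arrays labelled IRF2 and 172 ± 7.01 on the GFP control arrays, a log2 fold change of -0.32 (SE 0.05), which ran from -0.37 to -0.28 over the alternatives.

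Igf2r encodes the receptor that carries IGF2 to the lysosome for breakdown and also sorts lysosomal enzymes. Its brightest probe set read 236, 236 and 226 on the arrays labelled IRF2, against 216, 207 and 198 on the GFP control arrays (log2 fold change 0.17, SE 0.04). A second probe set read 67.2, 75.3 and 71.0 on the arrays labelled IRF2, against 54.8, 59.0 and 60.5 on the GFP control arrays (0.29, SE 0.06). Both were higher on every array labelled IRF2 than on any GFP control array. The annotation lists the other probe set for both Igf2r and the antisense RNA Airn, so it belongs to neither alone; it read 15.1 to 16.5 on the arrays labelled IRF2 and 15.4 to 16.8 on the GFP control arrays.

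**Figure D1:**
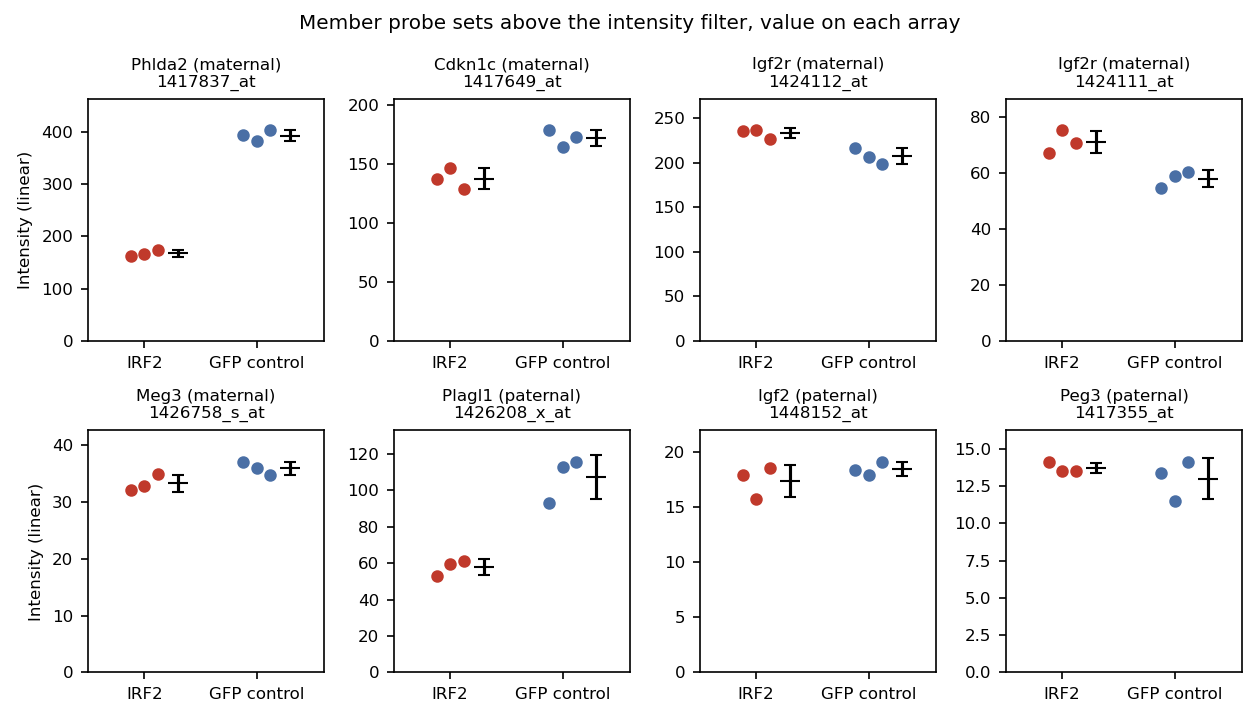
Linear intensity (vertical axes, from 0) of the brightest probe set of each member gene above the filter, and of the second Igf2r probe set, with the arrays labelled IRF2 on the left and the GFP control arrays on the right; points are arrays, and bars are the mean and SD of 3 arrays. The groups lie apart for Phlda2 (168 against 393), Cdkn1c, both Igf2r probe sets and Plagl1, and overlap for Meg3, Igf2 and Peg3.

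Plagl1 encodes a zinc finger transcription factor that, in mouse, is known to act on other imprinted genes. Its bright probe set read 52.7, 59.6 and 61.4 on the arrays labelled IRF2, against 93.1, 113 and 115 on the GFP control arrays. The groups did not overlap, and replicate 1 was the lowest array of each group. Means were 57.9 ± 4.58 on the arrays labelled IRF2 and 107 ± 12.2 on the GFP control arrays (log2 fold change -0.88, SE 0.08; -0.73 with 16 added before the log). That probe set carries the suffix by which the array maker marks sets with probes that may also match other transcripts, and its within-group SD, 0.15 on the log2 scale, was above the median of 0.061 for its decile. The remaining probe sets of Plagl1 lay under the filter: one read 8.20 to 10.8 on the arrays labelled IRF2 and 7.39 to 10.7 on the GFP control arrays, the other 4.51 to 5.15 on the arrays labelled IRF2 and 4.98 to 5.64 on the GFP control arrays. Neither separated the groups, and in the mean of all 3 probe sets the log2 fold change of Plagl1 came to -0.35.

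Igf2, the growth factor that Igf2r clears, was dim. Its brighter probe set read 17.9, 15.7 and 18.5 on the arrays labelled IRF2, against 18.3, 17.9 and 19.1 on the GFP control arrays (log2 fold change -0.09, SE 0.09). The other lay under the filter, at 6.52 to 7.06 on the arrays labelled IRF2 and 6.996 to 7.67 on the GFP control arrays. Groups overlapped in both. H19, a long noncoding RNA that shares its control region with Igf2, is listed only on a probe set that also names the microRNA gene Mir675, which lies within it. That probe set read 8.41, 7.25 and 8.30 on the arrays labelled IRF2, against 7.86, 7.08 and 6.41 on the GFP control arrays, under the filter and with overlapping groups.

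Meg3, a long noncoding RNA of the cluster it shares with Dlk1, had 11 probe sets, 6 of them above the filter. The brightest read 32.04, 32.8 and 34.9 on the arrays labelled IRF2, against 37.0, 36.0 and 34.7 on the GFP control arrays (log2 fold change -0.11, SE 0.07). Groups overlapped in 9 of the 11, and the others were higher on the arrays labelled IRF2: one read 16.7 to 17.2 there and 14.4 to 16.4 on the GFP control arrays, the other, under the filter, read 8.04 to 8.65 on the arrays labelled IRF2 and 6.94 to 7.87 on the GFP control arrays. Over all 11 the log2 fold changes ran from -0.16 to 0.15, and none of the 6 above the filter was called. In the mean of the 11 probe sets Meg3 came to 0.01, the opposite sign to its brightest one.

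Peg3, which encodes a zinc finger protein linked to maternal behaviour and growth in mice, had 1 of 5 probe sets above the filter. It read 14.1, 13.5 and 13.5 on the arrays labelled IRF2, against 13.4, 11.5 and 14.1 on the GFP control arrays (log2 fold change 0.08, SE 0.10). The sign turned without replicate 2 of the GFP control (-0.0058), the lowest array. Its other probe sets read 3.15 to 8.53 over the 6 arrays, and 1 of them gave 3.78 on 5 arrays and 3.86 on the other.

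Dlk1, a membrane protein of the Notch ligand family that holds back adipocyte differentiation, lay under the filter in both of its probe sets. The brighter read 9.66, 9.37 and 10.5 on the arrays labelled IRF2, against 10.1, 9.70 and 11.98 on the GFP control arrays, and these groups overlapped. Grb10, an adaptor that dampens signalling from the insulin and IGF receptors and is expressed from the paternal copy in neurons, had 3 probe sets, all under the filter, at 5.44 to 9.81 on the arrays labelled IRF2 and 5.13 to 10.2 on the GFP control arrays. All 3 overlapped between the groups. A level this low does not show that a transcript is absent, since no detection calls were used.

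**Figure D2:**
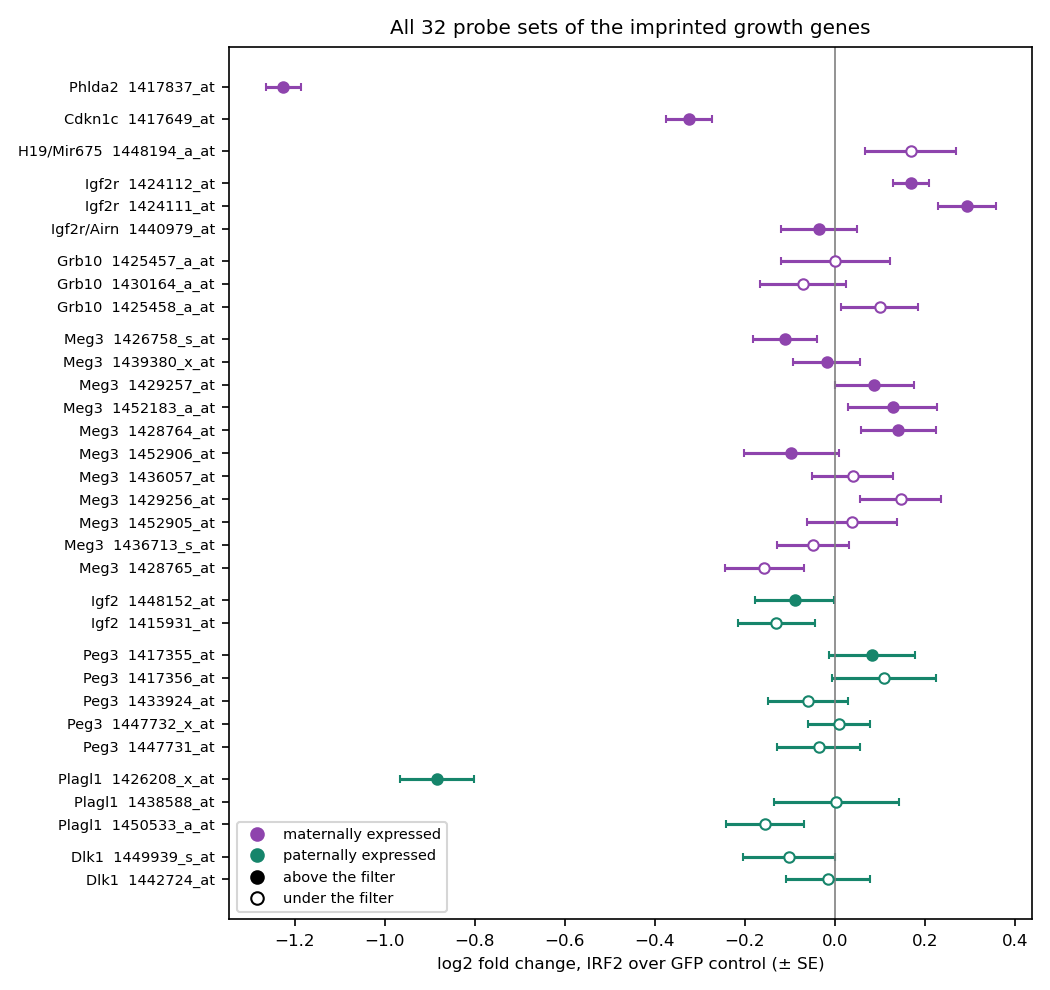
Log2 fold change of the arrays labelled IRF2 over the GFP control arrays (horizontal axis, with SE) for all 32 probe sets, coloured by the copy that is known to be expressed; filled points lie above the intensity filter and open points under it. Phlda2 (-1.23) and the bright Plagl1 probe set (-0.88) stand away from the rest, and the Meg3 probe sets scatter from -0.16 to 0.15.

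Of the 32 probe sets, 14 lay above the filter; 3 of these were called lower, 2 higher and 9 were not called. Over all 27022 probe sets fitted, 15.7% were called lower and 13% higher, 28.7% in all. Groups did not overlap in 7 of the 32, beside 29.0% of all probe sets that are not controls. Taking 1 probe set a gene, 7 of the 10 genes were fitted, and 3 of the 7 were called lower and 1 higher, beside 19.8% and 16.5% of the 12795 genes, 36.3% in all. Since this comparison brought Phlda2 onto the list, nothing is read from these counts.

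The maternally and the paternally expressed members were set side by side as the 2 sides of the growth balance. Of the 6 maternally expressed genes 4 were fitted: Phlda2 and Cdkn1c were called lower, Igf2r was called higher and Meg3 was not called, with a median log2 fold change of -0.22 and a range of -1.23 to 0.17. Of the 4 paternally expressed genes 3 were fitted: Plagl1 was called lower, and Igf2 and Peg3 were not called, with a median of -0.09 and a range of -0.88 to 0.08. The median over all genes fitted was -0.00070. Each side held values near 0 and a value far below it: Phlda2 for the maternal and Plagl1 for the paternal genes. The Plagl1 value is that of its bright probe set alone, and the ranges of the sides overlapped. With 3 and 4 genes, no test of the difference was made.

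The neighbours of Phlda2 and Cdkn1c on distal chromosome 7 were then examined, in the order of the RefSeq annotation, which was used for order alone. From Lsp1 to Dhcr7, 20 genes that are no members lay above the filter. Of these, 2 fell, 2 rose and 16 did not pass (limma adjusted p over all genes). Among all genes fitted, 19.8% were called lower and 16.5% higher. The genes on either side of Phlda2 had values near 0: Slc22a18, an organic cation transporter gene, had a log2 fold change of -0.06 (SE 0.07, adjusted p = 0.562) and Nap1l4, a histone chaperone gene, 0.07 (SE 0.03, adjusted p = 0.0671). Cars, the cysteinyl-tRNA synthetase gene on the far side of Nap1l4, came to -0.0016 (SE 0.03, adjusted p = 0.978). Slc22a18 did pass when its 2 probe sets were averaged (-0.21, adjusted p = 0.0145; range 0.0145 to 0.992), and its dimmer one came to -0.37. Nap1l4 passed under quantile normalization (0.09, adjusted p = 0.0223), after scaling to the trimmed mean (0.0285) and without replicate 1 of the GFP control (0.0153); its adjusted p lay between 0.0153 and 0.259 under the alternatives.

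On the other side of Cdkn1c lie Kcnq1ot1 and Kcnq1. Kcnq1, a potassium channel gene expressed from the maternal copy early in development, read 62.2, 57.2 and 58.9 on the arrays labelled IRF2, against 75.9, 70.9 and 73.6 on the GFP control arrays, and fell by 0.31 on the log2 scale (SE 0.06, adjusted p = 7.41e-04). Kcnq1ot1, the paternally expressed RNA that lies within Kcnq1 and antisense to it, read 31.2, 30.1 and 36.7 on the arrays labelled IRF2, against 40.04, 47.6 and 37.0 on the GFP control arrays, and fell by 0.34 (SE 0.10, adjusted p = 0.0121). Its call was lost without replicate 2 labelled IRF2 (adjusted p = 0.0631), without replicate 2 of the GFP control (0.0654) and without the intensity trend (0.0593), over a range of 0.00481 to 0.0654. A second Kcnq1ot1 probe set above the filter came to -0.33 (SE 0.09), and those under it ran from -0.68 to 0.0010. With its probe sets averaged the gene was too dim to be fitted. Further along, Mrpl23, a mitochondrial ribosomal protein gene, rose by 0.13 (SE 0.04, adjusted p = 0.00804), and the tetraspanin gene Cd81 rose by 0.07 (SE 0.02, adjusted p = 0.0136). Mrpl23 lost its call without replicate 2 labelled IRF2 (0.0550) and without the trend (0.0528; range 0.00231 to 0.0550). Cd81 lost it without replicate 2 labelled IRF2 or replicate 1 of the GFP control (0.0536 each) and without the trend (0.115; range 0.00424 to 0.115).

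**Figure D3:**
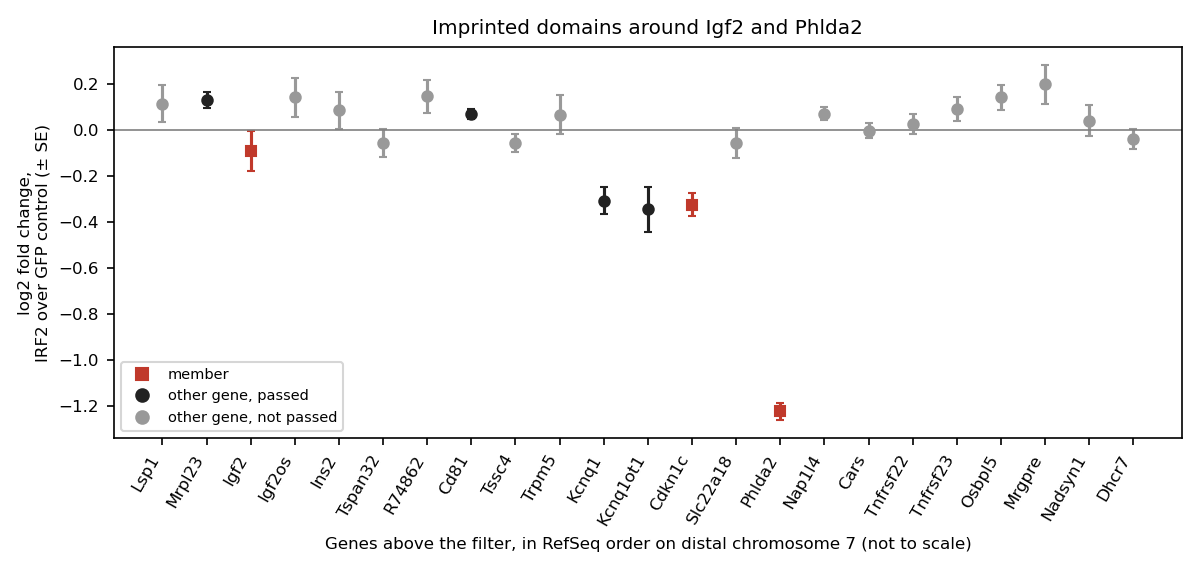
Log2 fold change of the arrays labelled IRF2 over the GFP control arrays (vertical axis, with SE) for the 23 genes above the filter from Lsp1 to Dhcr7, in RefSeq order and not to scale; squares are members, and black points are other genes that passed the test. Phlda2 lies at -1.23 while Slc22a18 (-0.06) and Nap1l4 (0.07) beside it lie near 0, and Kcnq1 (-0.31), Kcnq1ot1 (-0.34) and Cdkn1c (-0.32) lie below 0.

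A list of genes that share a cluster with any member gave 2 rises and 2 falls among 18 genes fitted, 22.2% beside 36.3% of all genes, with a median of 0.07. It shares 13 genes with the maternally expressed and 7 with the paternally expressed genes below. Around Plagl1, on chromosome 10, 4 of the 6 nearest fitted genes passed, beside 36.3% of all genes. These genes are named because that count was the highest around any of the 10 members, so nothing is read from it. Sf3b5 fell by 0.11 (SE 0.03, adjusted p = 0.00729) and Ltv1 by 0.26 (SE 0.04, adjusted p = 3.28e-05). Fuca2 fell by 0.58 (SE 0.06, adjusted p = 1.23e-06), while Utrn rose by 0.09 (SE 0.03, adjusted p = 0.0211). Stx11 came to -0.01 (SE 0.04, adjusted p = 0.852) and Zc2hc1b to 0.09 (SE 0.08, adjusted p = 0.430). Of the 6 nearest to Igf2r 1 rose and 1 fell, and the same held for Grb10. Airn, beside Igf2r on chromosome 17, has a probe set of its own and came to 0.08 (SE 0.06, adjusted p = 0.301). Rian, beside Meg3 on chromosome 12, came to 0.13 (SE 0.09, adjusted p = 0.319).

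Imprinted genes outside the list were examined next, taking 1 probe set a gene. Of 30 other genes known to be expressed from the maternal copy in at least some tissue, 20 were fitted; 6 rose, 3 fell and 11 did not pass, 45% called beside 36.3% of all genes, with a median log2 fold change of 0.07. Gatm, which encodes the first enzyme of creatine synthesis, read 117, 128 and 135 on the arrays labelled IRF2, against 238, 259 and 273 on the GFP control arrays, and fell by 1.02 (SE 0.06, adjusted p = 2.98e-09). Pon3, a paraoxonase gene, rose by 0.49 (SE 0.07, adjusted p = 2.71e-05). Gnas, the gene of the stimulatory G protein alpha subunit, rose by 0.16 (SE 0.02, adjusted p = 3.79e-06), but came to 0.06 (adjusted p = 0.465) once its 5 probe sets, of which 1 lies above the filter, were averaged (range 9.42e-07 to 0.465).

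Of 25 other genes known to be expressed from the paternal copy in at least some tissue, 12 were fitted. Of these 3 rose, 3 fell and 6 did not pass, 50% called, with a median of 0.03. Sgce, the sarcoglycan epsilon gene, fell by 0.61 (SE 0.10, adjusted p = 1.85e-04), or by 0.29 with its probe sets averaged. Inpp5f, a phosphoinositide phosphatase gene, rose by 0.31 (SE 0.04, adjusted p = 5.90e-05), or by 0.18 with its probe sets averaged. Sfmbt2, a Polycomb protein gene, fell by 0.32 (SE 0.10, adjusted p = 0.0145), or by 0.19 with 16 added before the log; the call was lost without replicate 1 labelled IRF2 (0.0787; range 0.00422 to 0.0787). In each class 7 genes were too dim to be fitted, among them the paternally expressed Peg10, Ndn and Nnat.

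The IGF axis around Igf2, Igf2r and Grb10 held 17 fitted genes of 20, of which 7 rose, 2 fell and 8 did not pass, 52.9% called beside 36.3% of all genes, with a median of 0.05. Igf1, the other IGF ligand, rose by 0.44 (SE 0.07, adjusted p = 2.25e-04). All 4 of its probe sets had positive log2 fold changes, from 0.31 to 0.62. Of the binding proteins, which hold IGFs in the extracellular space, Igfbp3 read 220, 234 and 231 on the arrays labelled IRF2, against 362, 377 and 361 on the GFP control arrays, and fell by 0.68 (SE 0.04, adjusted p = 1.37e-09). Igfbp4 rose by 0.27 (SE 0.02, adjusted p = 1.22e-07) and Igfbp7 by 0.39 (SE 0.03, adjusted p = 3.05e-08), or by 0.23 with its probe sets averaged. Igf2bp1, whose protein binds Igf2 mRNA, read 101, 109 and 119 on the arrays labelled IRF2, against 51.0, 54.6 and 66.7 on the GFP control arrays, and rose by 0.94 (SE 0.09, adjusted p = 6.86e-07). Its probe sets disagreed: 3 of the 4 above the filter ran from 0.49 to 0.94, and the mean of all 4 was 0.51. The other came to -0.29 and carries the suffix described for Plagl1, which marks probes that may also match other transcripts.

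**Figure D4:**
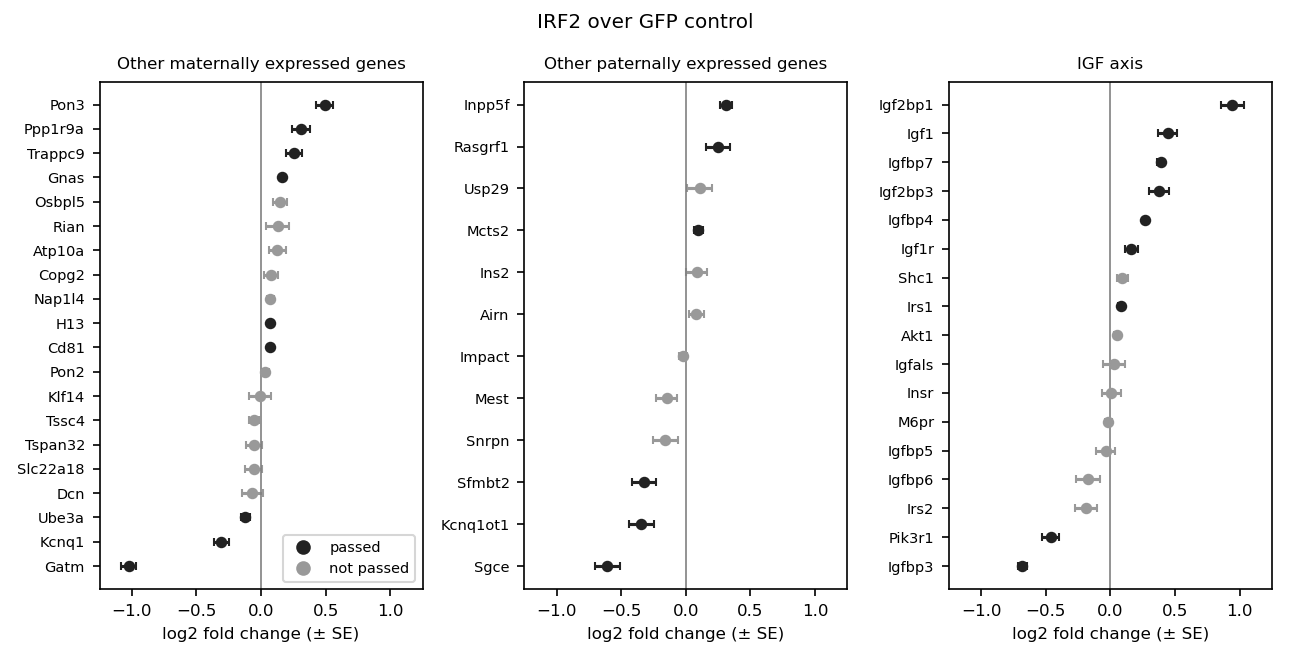
Log2 fold change of the arrays labelled IRF2 over the GFP control arrays (horizontal axes, with SE) for the fitted genes of 3 lists: other maternally expressed genes (20), other paternally expressed genes (12) and the IGF axis (17); black points passed an adjusted p of 0.05. Each list holds rises and falls, with Gatm at -1.02, Sgce at -0.61 and Igf2bp1 at 0.94.

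Factors that keep or read imprints had small log2 fold changes in the brightest probe set of each gene. Of 19 fitted genes 3 rose, 3 fell and 13 did not pass, 31.6% called, and the log2 fold changes ran from -0.19 to 0.18. The Polycomb genes Eed and Suz12 fell by 0.19 and 0.14 (SE 0.03 each, adjusted p = 1.38e-04 and 3.41e-04), Ctcf, which binds the control region of Igf2 and H19, fell by 0.11 (SE 0.03, adjusted p = 0.00393; by 0.20 with its probe sets averaged), and the histone methyltransferase gene Ehmt2 rose by 0.14 (SE 0.03, adjusted p = 7.17e-04). Eed came to -0.0074 (adjusted p = 0.943) when its 2 probe sets, 1 of them under the filter, were averaged (range 4.77e-05 to 0.943). The 6 Suz12 probe sets ran from -0.47 to 0.22, with 1 of them above 0. The dimmer Ctcf probe set came to -0.29 (SE 0.04). The maintenance methyltransferase gene Dnmt1 read 1088 on the arrays labelled IRF2 and 1073 on the GFP control arrays (log2 fold change 0.02, SE 0.03, adjusted p = 0.637), and its partner Uhrf1 came to 0.02 (SE 0.03, adjusted p = 0.548); these 2 were chosen after their values were seen.

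Relatives of the members were compared last. Of 9 fitted genes 3 rose, 1 fell and 5 did not pass, 44.4% called. Phlda1 and Phlda3, the other genes of the Phlda2 family, did not share its direction: Phlda1 rose by 0.06 (SE 0.02, adjusted p = 0.0288) and Phlda3 came to 0.08 (SE 0.03, adjusted p = 0.0650). Phlda1 lost its call without replicate 1 (0.115) or 2 (0.0894) labelled IRF2, without replicate 1 (0.0838) or 3 (0.0626) of the GFP control and without the trend (0.162; range 0.0129 to 0.162). Phlda3 passed without replicate 2 of the GFP control (0.0395), and under quantile normalization (0.0316), trimmed mean scaling (0.0370) and the mean of probe sets (0.0472; range 0.0316 to 0.205). Of the relatives of Cdkn1c, Cdkn1a fell by 0.44 (SE 0.04, adjusted p = 3.07e-07), with -0.35 in its other probe set. Cdkn1b rose by 0.23 (SE 0.03, adjusted p = 5.40e-05), but came to 0.10 (adjusted p = 0.253) when averaged with its dimmer second probe set (range 6.15e-06 to 0.253).

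The genes whose log2 values followed those of Phlda2 most closely over the 6 arrays, of 12794 compared, were Cdt1, a replication licensing gene, Krt34, a keratin gene, and Hsph1, a heat shock protein gene, with a Pearson r of 0.9999 for Cdt1, 0.9999 for Krt34 and 0.9995 for Hsph1. They are given as a description: the step between the groups sets such values, and 484 genes had an r over 0.98. Cdt1 read 1043, 1059 and 1073 on the arrays labelled IRF2, against 1399, 1388 and 1412 on the GFP control arrays.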

How the data were processed

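RNA of 6 Affymetrix 3' expression arrays was compared, 3 labelled IRF2 and 3 GFP control. The authors deposited 1 linear intensity per probe set and array. Per the submitters' processing notes MAS5 was used, in a role they do not state, and no source used here gives the scaling. Names came from the platform annotation, with symbols updated through RefSeq gene numbers (34741 of the 34945 probe sets with 1 symbol matched). Probe sets with several symbols named no gene. The log2 of each intensity entered a limma fit (version 3.58.1, R 4.3.3; group as the only term, intensity trend, all 6 arrays, two-sided, Benjamini-Hochberg over all features fitted), for each probe set and for the brightest probe set of each gene, above the 40th percentile of mean intensity. The fit was tested on simulated data. The number of arrays limits the precision. Members and lists were chosen with earlier results of these data known. Genes were named by rule: the 4 smallest p-values and any 2-fold change of each list other than the cell type markers, 4 neighbours of Phlda2 and Cdkn1c, Phlda1 and Phlda3, and the 3 genes most like Phlda2; others were added for their position or after their values were seen. The fit did not pair the arrays by replicate number.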

Additional observations from a re-analysis of the deposited data

How the results depend on the processing

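All 15 alternatives were run: no filter, a filter at the 60th percentile, 16 added before the log, quantile normalization, scaling to the 2% trimmed mean, the mean of all probe sets, no intensity trend, robust moderation, a replicate block and the omission of each array. Under each of them 4 member genes were called, a count from which nothing is read, since the list was built around Phlda2. The share called over all genes was 36.3% in the main fit. Without the intensity trend 1785 genes were called higher and 2015 lower, in place of 2111 and 2531. Of 101 member gene values under alternatives, 96 moved by no more than the within-group SD. Most of these could not have moved further. The filter settings, no intensity trend, robust moderation and the replicate block leave the log2 fold change as it is. Leaving out 1 array cannot shift it beyond that SD. The count is therefore no measure of robustness. The other paternally expressed genes called came to 3, in place of 6, with the filter at the 60th percentile, which tests fewer genes, and to 3 to 5 when 1 array was left out, with 3 without replicate 2 labelled IRF2. The genes called among those sharing a cluster came to 1, in place of 4, without the intensity trend, and to 2 to 5 when 1 array was left out, with 2 without that same replicate; the cause was not tested. The other lists kept their counts of calls within 1.5 times. Cars, near 0, turned its sign under quantile normalization (0.022) and trimmed mean scaling (0.010), and ran from -0.030 to 0.015 when 1 array was left out, above 0 without replicate 3 labelled IRF2 (0.0035) and without replicates 1 (0.015) and 3 (0.010) of the GFP control. With the replicate number as a block, 2141 genes were called higher and 2537 lower, in place of 2111 and 2531. Deviations of same-numbered arrays correlated at 0.07, -0.08 and -0.00077 over all genes fitted. Such values cannot exclude a shared replicate effect in single genes, and in Plagl1 replicate 1 was the lowest array of each group. Dim probe sets limit what can be said of Dlk1, Grb10 and H19.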
